A study of Mus musculus with 12 samples.

Results

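Bone morphogenetic protein 2 (BMP2) given together with the EZH2 inhibitor GSK126 was set against each agent alone in MC3T3 sc4 cells, a C57BL/6 calvarial pre-osteoblast line that lays down mineralised matrix in osteogenic medium. The members are genes of day 6, of any function, that lay above or below what the single agents would add up to, at both BMP2 doses. They were chosen from 6 of the 12 libraries: 10 and 50 ng/ml BMP2 with 5 µM GSK126, 10 and 50 ng/ml BMP2 alone, 5 µM GSK126 alone, and vehicle. All cells were at passage 12 in medium with ascorbic acid and β-glycerol phosphate, and the other 6 libraries hold the same treatments on day 1. Each condition has 1 library, so no difference between 2 conditions has a replicate check or is given a p-value. The p-values below come from 1 fit over all 12 libraries, in which both BMP2 doses are pooled in place of replicates. Both doses were compared with the same GSK126 and vehicle libraries, so the doses are not independent of each other. Whether separate cultures were used is not in the labels.

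BMP2 binds receptor kinases at the cell surface that phosphorylate SMAD proteins, which then switch on targets such as the Id genes and, in pre-osteoblasts, drive bone formation. EZH2 is the catalytic subunit of Polycomb repressive complex 2 (PRC2), which keeps developmental genes silent by methylating histone H3 on a lysine of its tail. An EZH2 inhibitor lets that mark decay.

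Values are counts scaled to a common library total (CPM, the usual unit), where 3 read pairs, taken as the floor, come to 0.0566 to 0.075 CPM on day 6. The additive expectation is BMP2 alone plus GSK126 alone minus vehicle, in CPM. A gene was called above when the combination was at least 1.5 times that sum and at least 1.5 times the higher single agent, with both 95% counting intervals of the difference above 0, and below by the mirrored rule. At both doses 100 of 12056 genes tested were above (0.829%), and 129 were below (1.07%). At 10 ng/ml alone 170 were above (1.41%) and 220 below (1.82%), while at 50 ng/ml alone 247 were above (2.05%) and 322 below (2.67%). Just inside the limit lay Baz1a (1.506 times), Fam20c (1.51) and Dapk2 (1.512) among genes above, and just outside lay Cdk19 (1.5 after rounding), Lrrc1 and Dhrs3 (both 1.498). For genes below, Camk2b (1.5) and Spock2 (1.505) were inside and Ccdc88c (1.493) and Dhrs9 (1.491) outside.

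**Figure D1:**
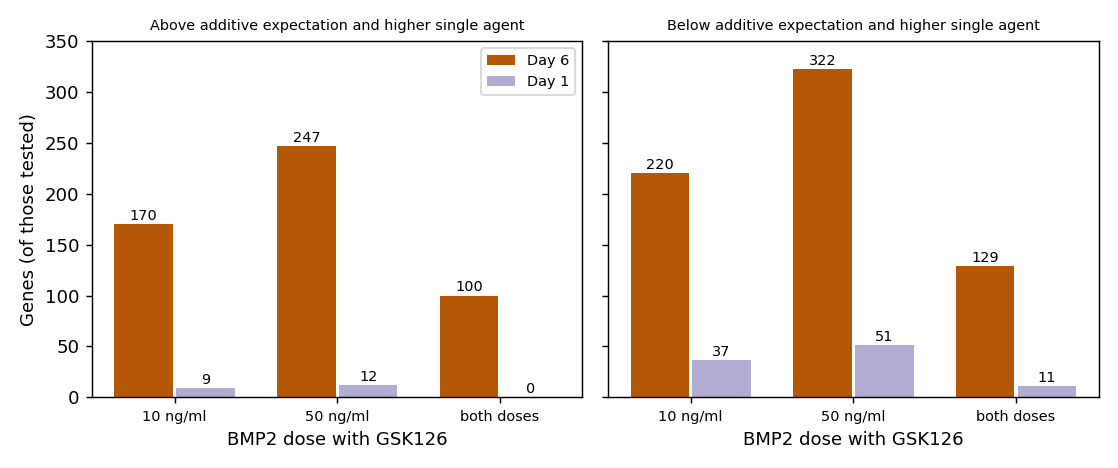
Number of genes (vertical axis, of 12056 tested) called above (left) or below (right) the additive expectation and the higher single agent at each BMP2 dose and at both doses, on day 6 and day 1. On day 6, 100 genes were above and 129 below at both doses, against 0 and 11 on day 1.

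Day-6 libraries held 80015906 to 106083584 counts. The ribosomal precursor Rn45s took 13.49% and 13.1% of counts in the combination at 10 and 50 ng/ml, against 17.16% and 21.66% in BMP2 alone, 14.47% in GSK126 alone and 15.4% in vehicle. This moves CPM values. At 50 ng/ml the median gene lay 0.20 above the additive expectation (log2), 0.07 with totals without Rn45s and 0.02 with TMM scaling. The matching values at 10 ng/ml were 0.07, 0.03 and 0.02. Over the higher single agent the median was -0.16, -0.21 and -0.11 at 50 ng/ml, in the same order. At 10 ng/ml it was -0.10, -0.13 and -0.07. With TMM scaling 100 genes were above, of which 94 were in the first set, and 143 were below. All 7 osteoblast markers were at 1 CPM or more in every day-6 library. No endothelial or adipocyte marker reached 1 CPM in any, and 2 to 3 of the leukocyte markers did, with Cd3e at 0. The 5 keratinocyte markers summed to 939.5 and 1122 CPM in the combination, against 170.3 and 118 CPM in BMP2 alone, 535 CPM in GSK126 alone and 65.9 CPM in vehicle. Nearly all of that was Cdsn, at 935 and 1115 CPM in the combination, against 166 and 111 CPM in BMP2 alone, 531 CPM in GSK126 alone and 62.1 CPM in vehicle, while Krt1 was at 0 in all 6 libraries and Krt5 in both combination libraries. Neural markers summed to 53.9 and 38.4 CPM in the combination, against 72.1 and 83.9 CPM in BMP2 alone, 50.5 CPM in GSK126 alone and 17.1 CPM in vehicle. The part of these markers in the results was not tested.

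Of the genes above, 8 belonged to the bone matrix list (Spp1, Bglap, Bglap2, Dmp1, Phex, Enpp1, Ank and Fam20c) and 92 did not. Reads of the osteocalcin genes Bglap and Bglap2, nearly identical in sequence, may have been split between them. The rule itself placed the combination above both single agents. The combination also exceeded vehicle at both doses for 99 of the 100, and the exception was Id2. The smaller of the ratios at the 2 doses was at least 2 for 40 genes and at least 3 for 17, up to 12.4. Combination CPM was higher at 50 than at 10 ng/ml for 88 genes. Single agents moved many of these genes too: GSK126 alone was at least 1.5 times vehicle for 61, BMP2 alone at 10 ng/ml for 51 and at 50 ng/ml for 72. For 44 genes all 3 single-agent libraries were that high, and for 21 none was. The matching shares over all genes tested were not counted, for the single agents or for the 88 genes. Nothing particular to the members is therefore read from these numbers. In 20 genes the BMP2, GSK126 and vehicle libraries all lay under 1 CPM. Because 14 genes passed the filter on low values only through the combination libraries, those 14 had to differ: Timp4, Gcet2, Asb10, Col13a1, Trem2, Mfsd7c, Cyfip2, Myom3, F7, Smagp, Akr1b7, D030025E07Rik, Clec10a and Tmem117.

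**Figure D2:**
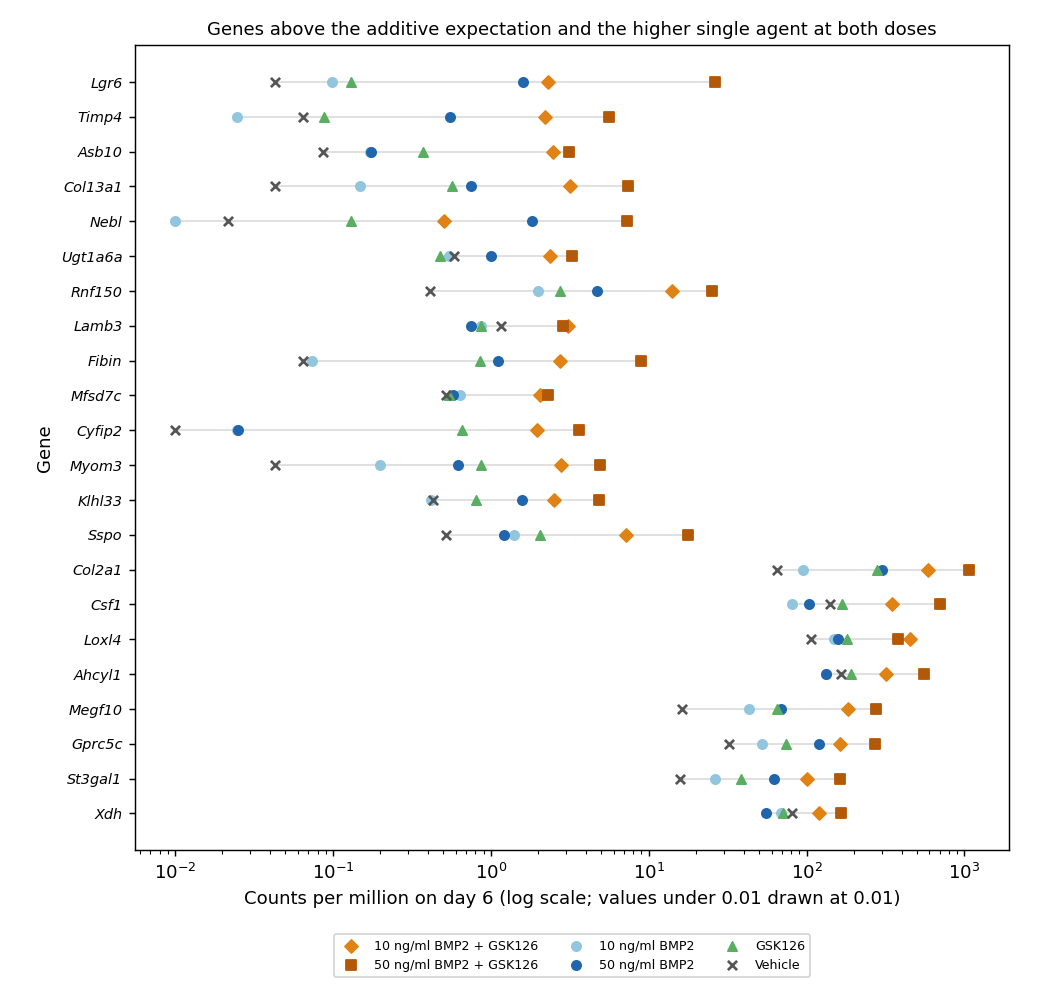
CPM on day 6 (horizontal log axis, 1 point per library) of the 22 named genes with the largest ratios or differences above the additive expectation, outside bone matrix. Both combination points lie to the right of every other library except for Nebl, whose point at 10 ng/ml (0.509 CPM) lay under BMP2 alone at 50 ng/ml (1.82 CPM). The genes were chosen for a high combination, so this placement was largely built in. For Timp4, Asb10, Col13a1, Mfsd7c, Cyfip2 and Myom3 the filter alone set it.

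Lgr6, an R-spondin receptor that raises Wnt signalling, had the largest value when each gene was ranked by the smaller of its ratios at the 2 doses. It was at 2.32 and 26.3 CPM in the combination at 10 and 50 ng/ml, against 0.0988 and 1.6 CPM in BMP2 alone, 0.131 CPM in GSK126 alone and 0.0433 CPM in vehicle. The combination was 12.4 and 15.6 times the additive expectation at 10 and 50 ng/ml, with 123 and 1248 read pairs. On mm10, the build of the deposited table, Lgr6 spans chr1:134986353-135105276, Csf1 chr3:107741048-107760469, Vdr chr15:97854427-97908296 and Abca1 chr4:53030789-53159895. On day 1 Lgr6 lay at 131 and 155 CPM in the combination, against 111 and 143 CPM in BMP2 alone, 73.2 CPM in GSK126 alone and 59.9 CPM in vehicle. Frzb, a secreted Wnt antagonist, was also above, at 4.28 and 5.82 CPM in the combination, against 0.247 and 0.725 CPM in BMP2 alone, 2.47 CPM in GSK126 alone and 0.0433 CPM in vehicle. Wnt7b and Wnt10a, which encode ligands, were below. The 24 Wnt pathway genes measured thus held 2 above and 2 below, beside 0.829% and 1.07% of all genes. Their median combination over higher single agent was -0.47 and -0.52 (log2), against -0.10 and -0.16 over all genes.

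Csf1, the macrophage colony-stimulating factor that osteoblast-lineage cells make for osteoclast precursors, had 350.2 and 697 CPM in the combination, against 81.2 and 104 CPM in BMP2 alone, 168 CPM in GSK126 alone and 141 CPM in vehicle. BMP2 alone thus lay below vehicle, and the combination was 3.24 and 5.34 times the additive expectation. It was the sole member among 13 cytokines, chemokines and receptors measured, beside 0.829% above and 1.07% below of all genes. Vdr, the vitamin D receptor, had 44.3 and 85.7 CPM in the combination, against 18.2 and 39.7 CPM in BMP2 alone, 20.6 CPM in GSK126 alone and 30.5 CPM in vehicle. Neither GSK126 alone nor 10 ng/ml BMP2 alone exceeded vehicle for it. Abca1, which exports cholesterol from cells, had 13.8 and 38.1 CPM in the combination, against 1.75 and 2.37 CPM in BMP2 alone, 8.03 CPM in GSK126 alone and 5.16 CPM in vehicle. The combination and the BMP2 libraries lay on opposite sides of vehicle for it. Ahcyl1, a regulator of the IP3 receptor, likewise had 318 and 551.5 CPM in the combination, against 132 and 133 CPM in BMP2 alone, 189.7 CPM in GSK126 alone and 166 CPM in vehicle.

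Among 20 BMP-SMAD target and feedback genes, Id1, Id2 and Atoh8 were above and none was below, beside 0.829% and 1.07% of all genes. Id1, an inhibitor of basic helix-loop-helix factors, had 1.62 and 6.03 CPM in the combination, against 0.84 and 3.4 CPM in BMP2 alone, 0.851 CPM in GSK126 alone and 1.3 CPM in vehicle. Id2 had 5.81 and 18.3 CPM in the combination, against 3.23 and 11.4 CPM in BMP2 alone, 3.58 CPM in GSK126 alone and 6.13 CPM in vehicle. The 10 ng/ml combination of Id2 therefore lay below vehicle. The list's median combination over higher single agent was 0.05 at both doses (log2). Runx2 and Sp7, transcription factors that bone formation needs, were not members. Sp7 had 358 and 502 CPM in the combination, against 212 and 417 CPM in BMP2 alone, 226 CPM in GSK126 alone and 96.8 CPM in vehicle, which was 1.05 and 0.92 times the additive expectation.

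Extracellular matrix genes outside bone matrix split by gene. Col2a1, the collagen of cartilage, had 592 and 1070 CPM in the combination, against 94.5 and 302 CPM in BMP2 alone, 278 CPM in GSK126 alone and 65.2 CPM in vehicle, which was 1.93 and 2.08 times the additive expectation. Col13a1, a transmembrane collagen, had 3.19 and 7.38 CPM in the combination, against 0.148 and 0.75 CPM in BMP2 alone, 0.568 CPM in GSK126 alone and 0.0433 CPM in vehicle. Both combination libraries lay over every other library for Col2a1; for Col13a1, which passed the filter only through them, the order was set by the filter. Chondrocyte markers, a list that holds Col2a1, summed to 619 and 1093 CPM in the combination. The sums were 116 and 337 CPM in BMP2 alone, 308 CPM in GSK126 alone and 93.96 CPM in vehicle. Col2a1 itself made up most of each sum, so the sums do not show that other chondrocyte markers rose with it. Acan, the cartilage proteoglycan, was at 0 in 5 libraries, and the part of other cell states was not tested. Of 22 fibrillar and network collagens, Col13a1, Col22a1 and Col24a1 were above and Col3a1 and Col23a1 were below, beside 0.829% and 1.07% of all genes. In bulk RNA, fewer cells of a type and less RNA per cell cannot be told apart.

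Timp4, an inhibitor of matrix metalloproteinases, had 2.21 and 5.65 CPM in the combination, against 0.0247 and 0.55 CPM in BMP2 alone, 0.0873 CPM in GSK126 alone and 0.065 CPM in vehicle. It passed the filter only through the combination libraries. Its 3 lowest libraries held 1, 4 and 3 read pairs, so its large ratio at 10 ng/ml rests on few reads. Cd200, a surface glycoprotein that signals to myeloid cells, had 92.8 and 122 CPM in the combination, against 6.59 and 18.3 CPM in BMP2 alone, 43.6 CPM in GSK126 alone and 1.78 CPM in vehicle. Among 7 leukocyte genes measured, Cd244, Cd200 and Plek were above and none was below, beside 0.829% and 1.07% of all genes. Summed leukocyte markers were 15.9 and 12.6 CPM in the combination, against 9.51 and 8.4 CPM in BMP2 alone, 16.3 CPM in GSK126 alone and 10.9 CPM in vehicle, so they were no higher in the combination than in GSK126 alone. Atp2a3, a calcium pump of the endoplasmic reticulum, had 55.5 and 54.8 CPM in the combination, against 10.4 and 8.15 CPM in BMP2 alone, 27.5 CPM in GSK126 alone and 1.58 CPM in vehicle.

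Further members above included single genes of cell shape, adhesion and the cell surface. Of 25 integrin and adhesion genes measured, 0 were above and Itgbl1 was below, beside 0.829% and 1.07% of all genes. That list's median combination over higher single agent was -0.26 and -0.19 (log2), against -0.10 and -0.16 over all genes. Lamb3, a chain of the basement membrane laminin-332, had 3.07 and 2.85 CPM in the combination, against 0.864 and 0.75 CPM in BMP2 alone, 0.873 CPM in GSK126 alone and 1.17 CPM in vehicle. Its combination libraries lay over the other 4, and no single agent exceeded vehicle. Nebl, a nebulin relative that binds actin, had 0.509 and 7.32 CPM in the combination, against 0 and 1.82 CPM in BMP2 alone, 0.131 CPM in GSK126 alone and 0.0217 CPM in vehicle. At 10 ng/ml its combination lay between BMP2 alone at the 2 doses. Sema7a, a membrane-anchored semaphorin, had 24.4 and 58.7 CPM in the combination, against 9.58 and 9.2 CPM in BMP2 alone, 11.6 CPM in GSK126 alone and 6.31 CPM in vehicle. St3gal1, a sialyltransferase, had 101 and 162 CPM in the combination, against 26.3 and 62.2 CPM in BMP2 alone, 38.3 CPM in GSK126 alone and 15.8 CPM in vehicle. For both, the combination exceeded every other library at both doses. Gprc5c, an orphan receptor, followed with 162 and 272 CPM in the combination, against 51.9 and 119.9 CPM in BMP2 alone, 73.6 CPM in GSK126 alone and 32.3 CPM in vehicle.

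Secreted and metabolic genes above covered several functions. Xdh, xanthine dehydrogenase of purine breakdown, had 120.3 and 165 CPM in the combination, against 69.1 and 55.3 CPM in BMP2 alone, 70.8 CPM in GSK126 alone and 81.2 CPM in vehicle. None of its single-agent libraries exceeded vehicle, and its interaction value was 1.30 ± 0.29 (adjusted p = 0.31). Ugt1a6a, a glucuronosyltransferase, had 2.39 and 3.29 CPM in the combination, against 0.543 and 1 CPM in BMP2 alone, 0.48 CPM in GSK126 alone and 0.585 CPM in vehicle. Loxl4, which crosslinks collagen and elastin, had 449.5 and 381 CPM in the combination, against 149.7 and 159 CPM in BMP2 alone, 180.0 CPM in GSK126 alone and 107 CPM in vehicle. Its combination was lower at 50 than at 10 ng/ml, unlike most members above. Ltbp2, a microfibril protein of the latent TGF-β binding family, had 1.56 and 3.5 CPM in the combination, against 0.543 and 1.23 CPM in BMP2 alone, 0.524 CPM in GSK126 alone and 0.282 CPM in vehicle. Vit, a matrix protein, had 28.4 and 41.4 CPM in the combination, against 11.7 and 18.4 CPM in BMP2 alone, 15 CPM in GSK126 alone and 10.5 CPM in vehicle. Both matrix genes ranked the 50 ng/ml combination first and the 10 ng/ml combination second. F7, coagulation factor VII, which passed the filter only through the combination libraries, had 2.15 and 2.68 CPM in the combination, against 0.914 and 0.775 CPM in BMP2 alone, 0.502 CPM in GSK126 alone and 0.39 CPM in vehicle. Vwf, the von Willebrand factor of endothelium, had 7.92 and 13.2 CPM in the combination, against 2.2 and 3.47 CPM in BMP2 alone, 2.44 CPM in GSK126 alone and 0.802 CPM in vehicle. Vwf was the sole member among 7 endothelial genes, beside 0.829% above and 1.07% below of all genes. The list's median combination over higher single agent was -0.56 and -1.53 (log2). Pparg, the adipocyte regulator, stayed under 1 CPM in every day-6 library, with 0.434 and 0.675 CPM in the combination, against 0.148 and 0.175 CPM in BMP2 alone, 0.196 CPM in GSK126 alone and 0.195 CPM in vehicle. Slc24a3, a sodium, potassium and calcium exchanger, had 65.7 and 85.8 CPM in the combination, against 29.3 and 46.8 CPM in BMP2 alone, 35.7 CPM in GSK126 alone and 33.5 CPM in vehicle.

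The result depends on whether effects are expected to add or to multiply. When GSK126 alone and BMP2 alone both raised a gene from a vehicle value at or above the floor, the multiplicative expectation was the larger of the 2. Of the 100 genes above, 52 were also at least 1.5 times the multiplicative expectation (BMP2 alone times GSK126 alone over vehicle) at both doses. A vehicle value under the floor was set to it, which lowers this expectation. Cyfip2, with 0 read pairs in vehicle, is among the 52. Multiplication gave it 0.249 and 0.252 CPM, against 0.68 CPM by addition at both doses. Atp2a3, at 181 and 142 CPM expected by multiplication, and Cd200, at 161.6 and 448 CPM, lay above addition but below multiplication. For Csf1 multiplication gave 96.6 and 123 CPM, for Vdr 12.2 and 26.8 CPM and for Abca1 2.73 and 3.7 CPM, all under their combination values. Of the 129 genes below, 102 were also at most 1/1.5 of the multiplicative expectation at both doses. Igf2, Igfbp2 and Igf1 were not among these 102. For Igf2 multiplication gave 6.267 and 3.7 CPM, against 5.053 and 4.072 CPM in the combination. For Igfbp2 it gave 6.564 and 0.7155 CPM, against 3.865 and 0.9917 CPM. For Igf1 it gave 27.78 and 3.137 CPM, against 16.25 and 2.553 CPM.

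**Figure D3:**
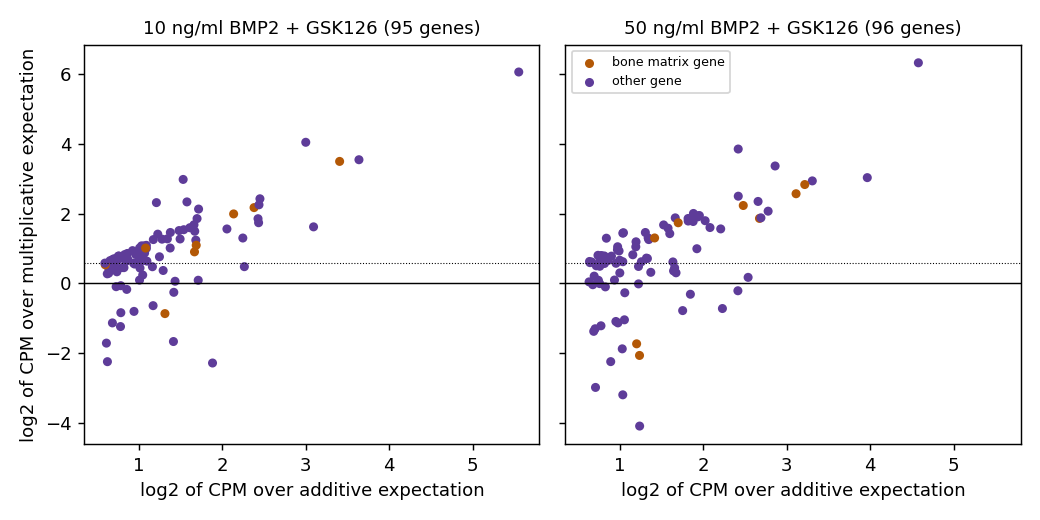
log2 of combination CPM over the additive (horizontal) and multiplicative (vertical) expectations for genes above at both doses, at 10 ng/ml (left, 95 genes) and 50 ng/ml (right, 96 genes), leaving out genes with an expectation at or below 0. Points under the solid line, 14 and 22 genes at 10 and 50 ng/ml, exceeded addition but not multiplication; the dotted line marks 1.5 times and orange points are bone matrix genes.

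Departure from multiplication was tested across all genes with edgeR's quasi-likelihood test on the 12 libraries of both days, in which the 2 BMP2 doses of a cell stand in for replicates. No gene passed on day 6 after Benjamini-Hochberg adjustment (0 of 12056), while 1125 (9.33%) had an unadjusted p under 0.05. In simulated counts this fit called 45.5% of day 6 interactions of size 2 (log2) and 0% of those of size 0.5 or 1. A lack of calls therefore does not show that no gene departed. DESeq2 called 190 genes and limma-voom 0, and a fit with a term for BMP2 dose called 39. Among those 39 were 4 of the genes above and 12 of the genes below, Hoxa10, Pgk1, Pfkl, Bnip3, Lamb3 and Vdr among them. Leaving out 1 library moved the edgeR count to 160 without 10 ng/ml BMP2 alone, 15 without 50 ng/ml BMP2 alone and 13 without the 10 ng/ml combination, all of day 6. Of the genes above, 74 had a positive and 25 a negative interaction value, with a median of 0.62 (log2) and a smallest adjusted p of 0.23, and 16 had an unadjusted p under 0.05. Of the genes below, all 129 had a negative value, with a median of -1.2 and a smallest adjusted p of 0.19, and 67 had an unadjusted p under 0.05. The members were chosen on these same libraries, so these shares are descriptions. Csf1 had 2.13 ± 0.59 (SE, adjusted p = 0.38), Abca1 2.90 ± 0.85 (adjusted p = 0.39), Lamb3 2.19 ± 0.33 (adjusted p = 0.23) and Atp2a3 -1.65 ± 0.27 (adjusted p = 0.24). Lgr6, at 2.38 ± 6.47 (adjusted p = 0.93), had too wide a spread between doses to be placed.

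In 72 of the 100 genes above, 10 ng/ml BMP2 with GSK126 gave at least 1.5 times the CPM of 50 ng/ml BMP2 alone, against 14.7% of all genes tested. The rule for members used both of these libraries, so a high share was built in and nothing is read from it. A further 22 lay within 1.5 times and 6 lay at or under 1/1.5 of it, against 3.14% of all genes tested. Csf1 at the low-dose combination (350.2 CPM) exceeded 50 ng/ml BMP2 alone (104 CPM), and Loxl4, a lysyl oxidase-like enzyme, stood at 449.5 against 159 CPM. Cd244, at 14.9 against 28.9 CPM, was among those lower.

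The 129 genes below fell into 2 patterns. For 59 the combination was lower than vehicle and both single agents at both doses, and for 70 it was not. In 57 of the 70, GSK126 alone was at least 1.5 times vehicle, so a level reached in that 1 library was not reached in the presence of BMP2. The same held for 11 of the 59. The matching share over all genes was not counted, so nothing particular to the members is read from these numbers. Egln1 and Sap30l were counted below because 2 single-agent libraries held unusually many of their counts, and Hapln4, Cherp and BC029214 because GSK126 alone did. Egln1 is among the 11, and the others are among the 57. Over all 129, the smaller ratio was at least 2 for 55 and at least 3 for 28, up to 14.5, and it was larger at 50 ng/ml for 95.

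**Figure D4:**
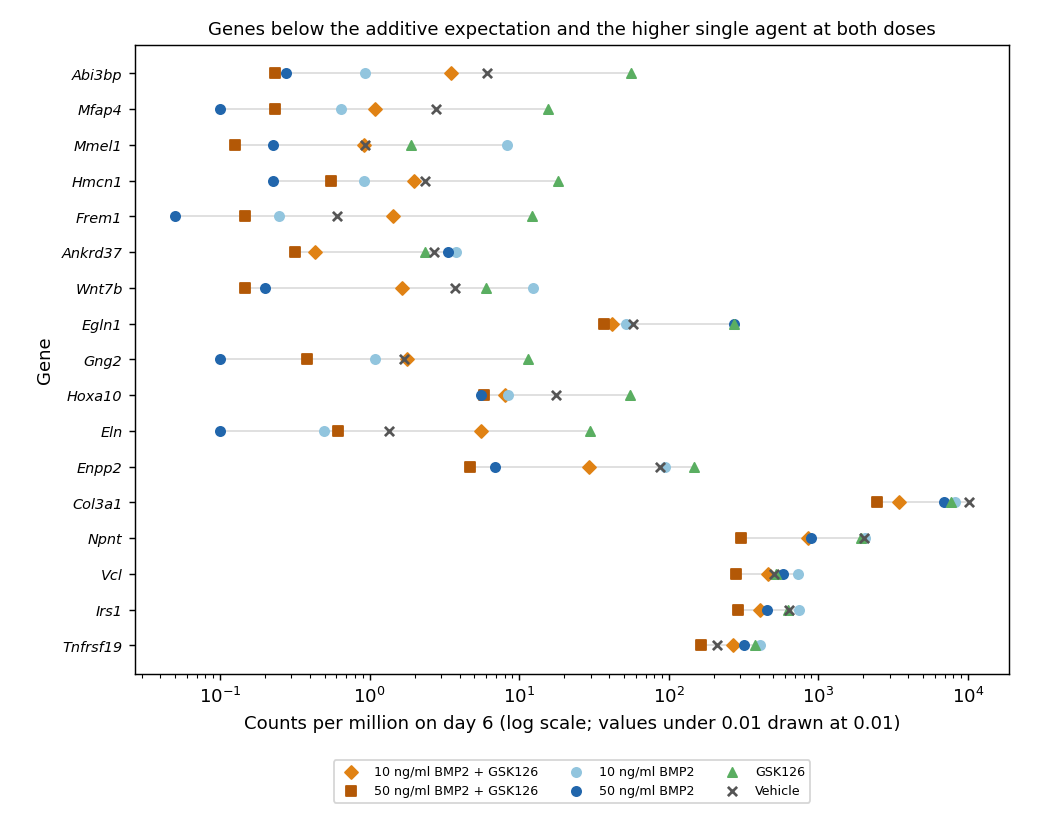
CPM on day 6 (horizontal log axis, 1 point per library) of the 17 named genes with the largest ratios or differences below the additive expectation. Abi3bp, Mfap4, Hmcn1, Frem1, Gng2, Hoxa10 and Eln peaked in GSK126 alone, whereas Col3a1, Npnt, Vcl and Irs1 were lowest in the combination.

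Of 21 small proteoglycan and elastic fibre genes, Eln and Mfap4 were below and Ltbp2 and Loxl4 were above, beside 1.07% and 0.829% of all genes. Eln and Mfap4 were among the genes whose level in GSK126 alone was not reached, as was Abi3bp. Abi3bp, a matrix protein, had 3.53 and 0.232 CPM in the combination, against 0.938 and 0.275 CPM in BMP2 alone, 56.3 CPM in GSK126 alone and 6.13 CPM in vehicle. Eln, which encodes elastin, had 5.58 and 0.612 CPM in the combination, against 0.494 and 0.1 CPM in BMP2 alone, 29.6 CPM in GSK126 alone and 1.34 CPM in vehicle. Mfap4, a partner of elastic fibres, had 1.09 and 0.232 CPM in the combination, against 0.642 and 0.1 CPM in BMP2 alone, 15.6 CPM in GSK126 alone and 2.77 CPM in vehicle. In all 3 genes BMP2 alone lay below vehicle and GSK126 alone far above it. Hoxa10, a homeobox gene of the kind PRC2 represses, followed the same order, with 8.05 and 5.78 CPM in the combination, against 8.47 and 5.6 CPM in BMP2 alone, 55.3 CPM in GSK126 alone and 17.7 CPM in vehicle. Its interaction value was -1.77 ± 0.29 (adjusted p = 0.25). Hoxa10 was the sole member among 8 Hox genes measured, beside 0.829% above and 1.07% below of all genes. H19 and Igf2, neighbouring imprinted genes, showed it too: Igf2 had 5.05 and 4.07 CPM in the combination, against 2.07 and 1.23 CPM in BMP2 alone, 13.9 CPM in GSK126 alone and 4.59 CPM in vehicle.

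Further genes lay higher in GSK126 alone than in the combination. Hmcn1, a large basement membrane protein, had 1.98 and 0.549 CPM in the combination, against 0.914 and 0.225 CPM in BMP2 alone, 18.2 CPM in GSK126 alone and 2.36 CPM in vehicle. Frem1, another basement membrane protein, had 1.43 and 0.148 CPM in the combination, against 0.247 and 0.05 CPM in BMP2 alone, 12.1 CPM in GSK126 alone and 0.607 CPM in vehicle. Gng2, a G protein subunit, had 1.79 and 0.38 CPM in the combination, against 1.09 and 0.1 CPM in BMP2 alone, 11.6 CPM in GSK126 alone and 1.69 CPM in vehicle. For these 3 the combination at 10 ng/ml lay far under GSK126 alone, and at 50 ng/ml it lay below vehicle. Itgbl1, an integrin-like secreted protein, had 6.17 and 0.0211 CPM in the combination, against 6.79 and 0.1 CPM in BMP2 alone, 37.4 CPM in GSK126 alone and 15.9 CPM in vehicle, where 1 read pair remained at 50 ng/ml. H19, an imprinted noncoding RNA, had 4.22 and 0.274 CPM in the combination, against 1.26 and 0.125 CPM in BMP2 alone, 17.3 CPM in GSK126 alone and 3.23 CPM in vehicle. In H19, as in Eln, the 10 ng/ml combination lay above vehicle and the 50 ng/ml combination below it. Col9a1, a cartilage collagen chain, had 2.79 and 1.39 CPM in the combination, against 0.0247 and 0.05 CPM in BMP2 alone, 4.63 CPM in GSK126 alone and 0.065 CPM in vehicle, so GSK126 alone exceeded the combination while BMP2 alone lay under the 3-pair floor. Col23a1, a transmembrane collagen, had 3.58 and 0.823 CPM in the combination, against 0.691 and 0.375 CPM in BMP2 alone, 6.7 CPM in GSK126 alone and 0.889 CPM in vehicle. Twist2, a repressor of osteoblast maturation, had 1.13 and 1.16 CPM in the combination, against 0.889 and 1.1 CPM in BMP2 alone, 2.58 CPM in GSK126 alone and 1.34 CPM in vehicle. Its combination lay under vehicle at both doses, though by little. Tnfrsf19, a receptor of the TNF family, had 267 and 165 CPM in the combination, against 410.1 and 319 CPM in BMP2 alone, 376 CPM in GSK126 alone and 209 CPM in vehicle, and there GSK126 alone and both BMP2 libraries all lay above vehicle while the 50 ng/ml combination lay under it.

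Growth factor genes were among the members below. Of 11 genes of the IGF and growth hormone axis, Igf1, Igf2, Igfbp2 and Pappa were below and none was above, beside 1.07% and 0.829% of all genes. The list's median combination over higher single agent was -0.81 and -1.4 at 10 and 50 ng/ml (log2), but over the additive expectation it was 0.29 and 0.6, against 0.07 and 0.20 for all genes, and 7 of the 11 interaction values were positive. Igf1, a growth factor for osteoblasts, had 16.3 and 2.55 CPM in the combination, against 24.6 and 2.77 CPM in BMP2 alone, 126 CPM in GSK126 alone and 111 CPM in vehicle. At 50 ng/ml the combination differed from BMP2 alone by little, with 121 and 111 read pairs. Irs1, an adaptor of the insulin and IGF receptors, had 404.5 and 290.1 CPM in the combination, against 746 and 457 CPM in BMP2 alone, 624 CPM in GSK126 alone and 635 CPM in vehicle.

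Among the genes lower than vehicle and both single agents, Col3a1, a fibrillar collagen gene, had 3436 and 2478 CPM in the combination, against 8215 and 6907 CPM in BMP2 alone, 7705 CPM in GSK126 alone and 10180 CPM in vehicle. Npnt, a ligand of an integrin made by osteoblasts, had 855 and 306 CPM in the combination, against 2041 and 892 CPM in BMP2 alone, 1917 CPM in GSK126 alone and 2022 CPM in vehicle. Neither GSK126 alone nor 10 ng/ml BMP2 alone moved Npnt by much, while the combination of both lay well under each. Enpp2, the enzyme that makes lysophosphatidic acid, had 29.2 and 4.68 CPM in the combination, against 94.5 and 6.9 CPM in BMP2 alone, 147 CPM in GSK126 alone and 87.6 CPM in vehicle.

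Wnt7b, a Wnt ligand, was highest at the low BMP2 dose alone, with 1.64 and 0.148 CPM in the combination, against 12.4 and 0.2 CPM in BMP2 alone, 5.96 CPM in GSK126 alone and 3.71 CPM in vehicle. Mmel1, a membrane peptidase, had the same order at that dose, with 0.924 and 0.127 CPM in the combination, against 8.3 and 0.225 CPM in BMP2 alone, 1.9 CPM in GSK126 alone and 0.932 CPM in vehicle. At 50 ng/ml both genes held under 10 read pairs in the combination and in BMP2 alone. Vcl, which links integrins to actin, had 458 and 282 CPM in the combination, against 735 and 582 CPM in BMP2 alone, 526 CPM in GSK126 alone and 505 CPM in vehicle. It was the sole member among 15 YAP and SRF target genes, beside 0.829% above and 1.07% below of all genes. Ptgs1, cyclooxygenase 1, had 75.5 and 34.1 CPM in the combination, against 133 and 77.7 CPM in BMP2 alone, 97.4 CPM in GSK126 alone and 86 CPM in vehicle. Fabp5, a fatty acid binding protein, had 76.5 and 35.1 CPM in the combination, against 169 and 48.3 CPM in BMP2 alone, 144 CPM in GSK126 alone and 128 CPM in vehicle. All 3 were highest in 10 ng/ml BMP2 alone. Btg2, an antiproliferative gene, had 37.9 and 25.9 CPM in the combination, against 41.2 and 22.6 CPM in BMP2 alone, 58.8 CPM in GSK126 alone and 41.8 CPM in vehicle and lay near the limit of the rule.

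Glycolysis and hypoxia genes gave the list with the most members below. Glycolysis breaks glucose down to pyruvate, and its enzymes share with hypoxia-response genes the control of hypoxia-inducible factors, which bind DNA at a short core sequence. Of 20 such genes measured, 7 were below (Pfkl, Pgk1, Pgam1, Eno1, Bnip3, Egln3 and Ankrd37) and 0 were above, beside 1.07% and 0.829% of all genes. In 15 of the 20 the combination lay below vehicle and both single agents at both doses, against 2047 of 12056 genes tested. The list's median combination over higher single agent was -0.95 and -0.86 at 10 and 50 ng/ml (log2), and -0.96 and -0.82 with TMM scaling, against -0.10 and -0.16 for all genes. Interaction values were negative for 18 of the 20, against 6028 of 12056 genes tested. In the edgeR test 15 of the 20 had an unadjusted p under 0.05, against 9.33% of all genes, but none passed adjustment. The cholesterol synthesis genes described below showed the same trait.

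**Figure D5:**
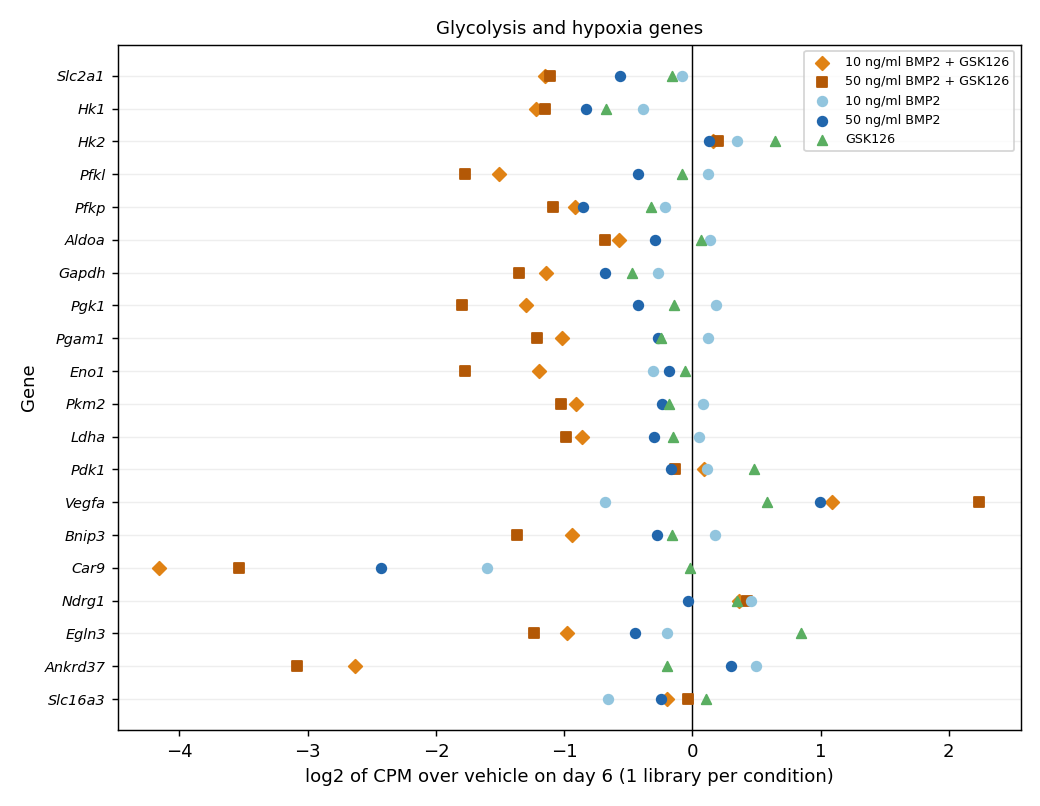
log2 of CPM over vehicle on day 6 (horizontal axis, 1 library per condition) for the 20 glycolysis and hypoxia genes measured. Combination points lie left of the single agents for 15 genes at both doses; Vegfa lies to the right at both.

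Pfkl, the liver-type phosphofructokinase, had 32.3 and 26.9 CPM in the combination, against 99.8 and 68.4 CPM in BMP2 alone, 87.0 CPM in GSK126 alone and 91.8 CPM in vehicle. Its interaction value was -1.53 ± 0.21 (unadjusted p = 0.00021, adjusted p = 0.23), and the fit with a dose term called it at -1.52 ± 0.1. Pgk1, phosphoglycerate kinase, had 141 and 99.4 CPM in the combination, against 394 and 258 CPM in BMP2 alone, 314 CPM in GSK126 alone and 346 CPM in vehicle, with an interaction value of -1.41 ± 0.30 (adjusted p = 0.30). The 4 other libraries lay between 68.4 and 99.8 CPM for Pfkl and between 258 and 394 CPM for Pgk1, and neither range overlapped the combination. Ankrd37, a hypoxia-induced gene, had 0.434 and 0.317 CPM in the combination, against 3.8 and 3.32 CPM in BMP2 alone, 2.34 CPM in GSK126 alone and 2.69 CPM in vehicle. Bnip3, which drives mitophagy, had 21.5 and 16 CPM in the combination, against 46.6 and 34.1 CPM in BMP2 alone, 36.9 CPM in GSK126 alone and 41.2 CPM in vehicle. Vegfa, the angiogenic factor, went the other way, with 57.3 and 127 CPM in the combination, against 16.8 and 53.6 CPM in BMP2 alone, 40.2 CPM in GSK126 alone and 26.9 CPM in vehicle. Reads of Eno1, Pgk1 and Pgam1 can be shared with near-identical pseudogenes, so their levels are uncertain. On day 1 Pfkl lay at 49.3 and 51.6 CPM in the combination, against 49.1 and 48.8 CPM in BMP2 alone, 54.5 CPM in GSK126 alone and 52.3 CPM in vehicle, so no such gap was seen.

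Promoter windows of these genes are shown because the members moved together. Each runs from 250 bases before to 50 bases after the annotated start, from RefSeq on GRCm38.p6, written 5′ to 3′ on the gene's strand, with the core that hypoxia-inducible factors bind, ACGTG on either strand, in capitals. On the opposite strand it reads CACGT. The windows are Pgk1 at chrX:106186850-106187149 (plus strand), Ankrd37 at chr8:45999801-46000100 (minus strand), Bnip3 at chr7:138909457-138909756 (minus strand), Egln3 at chr12:54203825-54204124 (minus strand) and Pfkl at chr10:78009758-78010057 (minus strand).
Pgk1: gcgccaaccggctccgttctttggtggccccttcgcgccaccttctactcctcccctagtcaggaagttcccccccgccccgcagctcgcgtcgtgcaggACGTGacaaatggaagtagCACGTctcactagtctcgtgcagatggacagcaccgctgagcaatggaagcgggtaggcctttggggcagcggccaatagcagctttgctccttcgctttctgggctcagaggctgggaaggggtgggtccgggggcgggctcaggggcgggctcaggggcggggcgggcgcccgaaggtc
Ankrd37: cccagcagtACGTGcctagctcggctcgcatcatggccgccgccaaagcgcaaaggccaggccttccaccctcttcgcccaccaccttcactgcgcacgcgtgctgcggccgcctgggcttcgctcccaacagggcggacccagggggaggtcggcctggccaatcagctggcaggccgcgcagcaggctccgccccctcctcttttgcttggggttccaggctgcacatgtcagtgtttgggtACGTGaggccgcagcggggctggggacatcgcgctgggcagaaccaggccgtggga
Bnip3: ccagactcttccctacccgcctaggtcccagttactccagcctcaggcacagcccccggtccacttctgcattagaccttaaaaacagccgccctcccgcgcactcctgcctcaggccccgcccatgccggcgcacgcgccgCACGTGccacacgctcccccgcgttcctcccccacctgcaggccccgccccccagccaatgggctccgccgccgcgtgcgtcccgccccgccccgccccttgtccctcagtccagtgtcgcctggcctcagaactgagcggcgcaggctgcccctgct
Egln3: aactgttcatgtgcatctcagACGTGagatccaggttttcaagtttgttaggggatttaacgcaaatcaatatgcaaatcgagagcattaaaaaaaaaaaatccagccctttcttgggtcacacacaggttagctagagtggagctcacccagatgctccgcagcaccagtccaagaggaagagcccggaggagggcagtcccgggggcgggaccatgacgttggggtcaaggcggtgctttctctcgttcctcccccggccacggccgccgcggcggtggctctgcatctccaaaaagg
Pfkl: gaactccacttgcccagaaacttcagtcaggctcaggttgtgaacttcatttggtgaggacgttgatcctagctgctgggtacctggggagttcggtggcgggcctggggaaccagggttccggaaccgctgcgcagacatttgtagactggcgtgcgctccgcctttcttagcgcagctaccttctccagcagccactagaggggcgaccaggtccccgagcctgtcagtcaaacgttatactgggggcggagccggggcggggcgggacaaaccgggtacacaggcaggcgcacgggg
Pgk1, Ankrd37 and Bnip3 held 2 matches each, those of Bnip3 overlapping in 1 palindrome, Egln3 held 1 and Pfkl held none. The core stood in 11 of the 19 windows of the glycolysis and hypoxia list (57.9%), in 15 of 42 windows of genes lower than vehicle and both single agents (35.7%), in 28 of 97 windows of all genes below (28.9%), and in 26.3% of 9610 windows of genes tested. It was added to the motifs after the list's values were seen. The list groups genes known for control by these factors and also holds genes that were not members. Its high share was therefore built in, and nothing about the members is read from it. In the windows of genes above, 81 of which were matched, the core stood in 14.8%. Of the other motifs searched on both strands, the RUNX letters TGTGGT stood in 13.6%, against 12.0% of genes tested. The SMAD letters GGCGCC stood in 17.3%, against 22.0%. Homeobox letters (TAATTA) and CHOP-ATF4 letters (TGATGNAA) stood in 4 windows each (4.94%), against 2.27% and 2.13%. The RUNX letters stood in 0 of 42 windows of genes lower than vehicle and both single agents, and in 7.22% of all genes below. These are matches of letters, not shown sites.

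Cholesterol synthesis and proliferation genes were low in the combination without being members. All 22 cholesterol synthesis genes measured stayed out of both sets. Yet 20 lay below vehicle and both single agents at both doses, against 2047 of 12056 genes tested. Their median combination over higher single agent was -1.09 and -1.33 (log2), against -0.10 and -0.16 over all genes. Over the additive expectation it was -0.19 and -0.48, against 0.07 and 0.20 over all genes. Interaction values were negative for 21 of the 22, against 6028 of 12056 genes tested. In the edgeR test 17 had an unadjusted p under 0.05, against 9.33% of all genes, but none passed adjustment. Hmgcs1, which makes HMG-CoA, had 115 and 89.4 CPM in the combination, against 197 CPM in BMP2 alone at both doses, 252 CPM in GSK126 alone and 318 CPM in vehicle. Of 24 proliferation genes 22 lay below vehicle and both single agents at both doses, with medians over the higher single agent of -1.06 and -1.12. Unlike in the cholesterol list, their interaction values were negative for 9 and positive for 15. In the edgeR test 0 of them had an unadjusted p under 0.05. Mki67, a marker of dividing cells, had 83.8 and 57.5 CPM in the combination, against 185 and 110 CPM in BMP2 alone, 123 CPM in GSK126 alone and 290.0 CPM in vehicle. Since each agent alone already lowered it, the additive expectation was 17.4 CPM at 10 ng/ml and negative at 50 ng/ml, so the combination stood above that sum while below each agent.

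Over all genes 0.829% were above and 1.07% below, so short lists may hold no member, and nothing is read from that. Several lists held no member in either direction. Among them were 20 PRC2 and PRC1 genes, 19 of the integrated stress response, 18 of the unfolded protein response, 15 antioxidant genes, 12 interferon-stimulated genes and 16 BMP and TGF-β ligands and receptors. Their median combination over higher single agent lay between -0.75 and 0.12 (log2) over both doses. Contractile genes, 10 measured, had medians of -0.82 and -0.99 with no member. Ezh2 itself had 31.6 and 27.4 CPM in the combination, against 36.6 and 26.2 CPM in BMP2 alone, 34.4 CPM in GSK126 alone and 46.8 CPM in vehicle. Ostn, which encodes osteocrin, had 28.2 and 37.8 CPM in the combination, against 0.0247 and 0.175 CPM in BMP2 alone, 27.2 CPM in GSK126 alone and 0.0867 CPM in vehicle, close to GSK126 alone.

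On day 1, where the members were not chosen, the same rule found 0 genes above and 11 below at both doses (0.0% and 0.0912%). Over all genes, 9 were above (0.0747%) and 37 below (0.307%) at 10 ng/ml on day 1, and 12 above (0.0995%) and 51 below (0.423%) at 50 ng/ml. None of the 100 genes above on day 6 was above at 10 ng/ml on day 1, and Tbxas1 alone was at 50 ng/ml. Of the 129 genes below on day 6, Itgbl1 was below at 10 ng/ml and Mfap4 and Col23a1 at 50 ng/ml, while Egln1 and Greb1 were above at 50 ng/ml. The interaction on day 1 called 1 gene (0.00829%), Prkra, and the difference in interaction between day 6 and day 1 called 0 genes (463 at an unadjusted p under 0.05, 3.84%; DESeq2 called 26). A difference between days was therefore not shown by the edgeR test for any member.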

How the data were processed

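Gene counts and RPKM values were deposited by the authors in 1 table for the 12 libraries. Reads were handled with bcl2fastq, TopHat2 2.0.6 and HTSeq against mm10, per the submitters' processing notes; strand and annotation release were not stated there, so overlapping and antisense genes cannot be separated. The deposited RPKM values (scaled by the authors) served only to derive alternative library totals. The members and gene lists were chosen with earlier results of these data known. Every deposited count was even, so 2 counts were taken as 1 read pair in the intervals (Poisson, normal approximation; counting error only). The filter kept every gene that reached 1 CPM in 2 or more libraries, and list members under an older symbol were matched by name tables.

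The interaction was fitted with edgeR 4.0.16 (R 4.3.3, TMM, quasi-likelihood, adjusted p under 0.05) as cell means of day by GSK126 by any BMP2, with 8 coefficients and 4 residual degrees of freedom; its p-values reflect the spread among these libraries alone, which may be technical. The scripts were tested on simulated counts. With a dose term the fit called 81.8% of simulated interactions of size 2 and 4.48% of those of size 1 (log2), and 9 of 11856 unchanged genes. Alternatives were DESeq2 1.42.0, limma-voom (limma 3.58.1), other scalings, filters, fold limits, an added dose term, fits per day and each BMP2 library left out.

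Outside bone matrix and rows sharing a name, named genes were up to 14 above and 12 below ranked by the smaller of their ratios at the 2 doses, up to 8 above and 6 below of largest CPM difference, up to 3 per list, interaction calls and a fixed panel. Pgk1, Pgam1, Eno1, Bnip3, Vegfa, Hmgcs1, Wnt10a, Pappa, Col24a1, Prkra, Tbxas1, Greb1, Sap30l, Hapln4, Cherp, BC029214, Cdsn, the genes named for passing the filter and the genes at the limit were chosen after their values were seen. Promoter windows were taken from RefSeq, the first listed per gene.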

Additional observations from a re-analysis of the deposited data

How the results depend on the processing

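Both sets of members kept their size within 1.5 times under TMM scaling, totals without Rn45s, totals implied by the authors' RPKM values and no counting interval. At a lower fold limit 223 genes were above and 265 below, and at 2-fold 40 and 55. With at least 5 CPM in 2 libraries 63 were above and 79 below, and with no filter 233 were below. With the multiplicative in place of the additive expectation, 50 were above by the full rule with its floors and counting intervals (52 of the 100 by ratio alone). By the same full rule 94 were below, of which 83 were in the first set (102 of the 129 by ratio alone). The additive expectation alone gave 1062 above, and the higher single agent alone 172 above and 915 below. The day 6 interaction called 190 genes with DESeq2, 4 with no filter, 39 with a dose term and 0 to 160 with 1 library left out. The day 1 interaction called 0 with library size alone or a dose term, 2 in libraries of day 1 only and 0 to 3 with 1 library left out. The difference between days called 26 with DESeq2 and 0 to 10 with 1 library left out. With 1 library left out, its cell's other library is assumed to vary like the rest. The interaction value of Col2a1, -0.18, became 0.03 with limma-voom or a dose term, and with 1 library left out it ranged over -0.84 to 1.05, the higher end without 50 ng/ml BMP2, and was 0.21 without the 10 ng/ml combination. That of Igf1 ranged over -2.6 to 1.35, the highest without 10 ng/ml BMP2, and that of Lgr6 over -0.31, without the 50 ng/ml combination, to 5.61. The cause was not tested. No paired analysis was possible because each condition has 1 library. Depth limits genes with few read pairs, such as Timp4.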

Other observations

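Single libraries held outlying values of a few genes that bear on the members. Egln1, an oxygen-sensing prolyl hydroxylase, had 37.0 to 65.7 CPM in 9 libraries but 218.6 CPM in 50 ng/ml BMP2 with GSK126 on day 1, and 274.3 CPM in 50 ng/ml BMP2 alone and 272.6 CPM in GSK126 alone on day 6. Sap30l had 498.2 CPM in 50 ng/ml BMP2 alone and 111.8 CPM in GSK126 alone on day 6, and 18.6 to 24.0 CPM elsewhere. In GSK126 alone on day 6, Hapln4 had 141 CPM, Cherp 130 CPM and BC029214 29.2 CPM, each its highest of 12 libraries. Prkra, the gene called by the day 1 interaction (2.32 ± 0.16, edgeR adjusted p = 0.03), had 127.1 CPM in vehicle of day 1 and 18.9 to 28.3 CPM in the other 11 libraries.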
